A study of Mus musculus with 20 samples.

Results

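*Meis1*, *Meis2*, *Meis3*, *Pbx2*, *Pbx3* and *Pbx4* encode homeodomain proteins that bind DNA together with Hox proteins. These 6 of the 37273 genes annotated on NCBIM37 (mm9) were taken by name as a gene family, chosen with earlier results of these data known, and each was examined over its gene body plus 5 kb on each side, called its window here. Peaks of 5-formylcytosine (5fC) in these windows came from pull-down libraries of dissected E11.5 mouse tissues. Hindbrain libraries came from 4 litters named A, O, Q and Z, each giving 1 WT embryo and 1 *Tdg* null embryo. Heart, liver and carcass, the remainder of the embryo after dissection, came from 4 further embryos in 2 litters, pair a and pair b, again with 1 embryo of each genotype. *Tdg* null embryos came from crosses of heterozygotes and lack in every cell the sequence coding for the catalytic domain of TDG, replaced by a neomycin cassette, whereas WT littermates carry the intact gene. No other allele or treatment was given for any embryo. The tissues are whole dissected pieces, so a difference in the share of cells that carry 5fC and a difference in 5fC per cell cannot be told apart.

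Meis and Pbx proteins belong to the TALE class of homeodomain proteins, which carry extra residues in a loop of the homeodomain. They pair with one another and with Hox proteins, and the resulting complexes recognise longer sites than a Hox protein alone. In the embryonic hindbrain such complexes act on the segmental expression of *Hox* genes, and *Meis* and *Pbx* genes also act in heart, limb and blood development. 5fC arises when TET enzymes oxidise 5-methylcytosine, mostly at CpG dinucleotides, and TDG excises it, so that it builds up where TDG is missing.

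The authors called peaks in each pull-down separately, and the deposited values are the positions of the peaks in bases, without heights or read numbers. The 10 WT libraries held 1563 to 42012 peaks over 0.0349 to 0.939% of the genome. The 9 *Tdg* null libraries used held 101344 to 254319 peaks over 2.68 to 8.09%. The *Tdg* null liver of pair b held 228 peaks, none of them in a window of the 6 genes, and is kept apart. The *Tdg* window itself was under peaks by 0 to 1.94% in WT and by 0 to 11.0% in *Tdg* null libraries. These positions mark 5fC and not the deletion, so they do not check the genotype labels.

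The middle 300 bases of 5 stretches, 1 in each of 5 windows, are shown because peaks recurred there across libraries or tissues. All are from NCBIM37 and are written on the strand of the gene, 5′ to 3′, with CpG dinucleotides in capitals. The stretch of *Meis1* intron 8 at chr11:18830451-18830750 (minus strand) lay under a peak in 4 WT libraries. The stretch of *Meis2* intron 8 at chr2:115868801-115869100 (minus strand) lay under a peak in 5 WT libraries, the most for any stretch of the 6 genes. The stretch of *Pbx2* at chr17:34730801-34731100 (plus strand) and that of *Pbx3* intron 2 at chr2:34085751-34086050 (minus strand) were covered in all 9 *Tdg* null libraries. The *Pbx2* stretch overlaps a coding exon, by which it is labelled below, but need not lie wholly within it. The stretch of *Pbx4* intron 1 at chr8:72372901-72373200 (plus strand) was covered in both *Tdg* null hearts and in no *Tdg* null hindbrain or carcass.
Meis1 intron 8: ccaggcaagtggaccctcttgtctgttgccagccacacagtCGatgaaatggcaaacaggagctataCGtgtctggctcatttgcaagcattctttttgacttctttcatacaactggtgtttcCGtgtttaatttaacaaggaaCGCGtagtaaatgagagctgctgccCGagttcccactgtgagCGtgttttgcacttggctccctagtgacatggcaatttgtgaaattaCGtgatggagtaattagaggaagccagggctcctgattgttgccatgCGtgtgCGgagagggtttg
Meis2 intron 8: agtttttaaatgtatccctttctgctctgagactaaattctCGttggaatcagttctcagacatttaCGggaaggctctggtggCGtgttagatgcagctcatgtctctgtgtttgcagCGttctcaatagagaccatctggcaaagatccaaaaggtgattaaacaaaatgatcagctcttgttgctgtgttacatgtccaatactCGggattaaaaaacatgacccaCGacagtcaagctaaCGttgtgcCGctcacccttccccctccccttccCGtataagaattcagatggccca
Pbx2 coding exon: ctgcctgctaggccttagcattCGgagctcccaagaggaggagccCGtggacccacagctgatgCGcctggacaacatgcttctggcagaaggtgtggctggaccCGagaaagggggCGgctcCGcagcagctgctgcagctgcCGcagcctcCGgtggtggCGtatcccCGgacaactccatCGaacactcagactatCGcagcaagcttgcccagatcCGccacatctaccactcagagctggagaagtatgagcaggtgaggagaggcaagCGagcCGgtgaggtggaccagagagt
Pbx3 intron 2: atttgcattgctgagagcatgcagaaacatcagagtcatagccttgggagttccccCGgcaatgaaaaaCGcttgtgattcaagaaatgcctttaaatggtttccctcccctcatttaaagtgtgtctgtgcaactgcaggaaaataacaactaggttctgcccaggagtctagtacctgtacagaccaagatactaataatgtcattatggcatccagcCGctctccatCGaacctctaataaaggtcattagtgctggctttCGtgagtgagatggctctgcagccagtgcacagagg
Pbx4 intron 1: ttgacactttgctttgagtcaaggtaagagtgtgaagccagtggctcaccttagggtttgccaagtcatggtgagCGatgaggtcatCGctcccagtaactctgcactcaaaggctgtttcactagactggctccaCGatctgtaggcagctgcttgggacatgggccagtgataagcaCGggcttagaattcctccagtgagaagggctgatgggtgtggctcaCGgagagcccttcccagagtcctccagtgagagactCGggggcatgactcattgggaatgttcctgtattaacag

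The 300 bases held 10 CpGs in *Meis1*, 9 in *Meis2*, 15 in *Pbx2*, 5 in *Pbx3* and 6 in *Pbx4*. Among stretches of at least 300 bp, the central 300 bases had a median of 7.0 CpGs in the 12051 shared by the 9 *Tdg* null libraries and of 5.0 in the 54578 heart stretches, the class of the *Pbx4* sequence. The *Meis1* and *Meis2* sequences, taken for their WT peaks, belong to neither class and have no such background here. Both strands were searched for TGACAG, a Meis motif, and for TGATTGAT, TGATTTAT and TGATTAAT, motifs of Pbx with Hox. None of the 5 sequences held any of these letters, but some stretches not printed here did, such as the longest heart stretch of *Meis1* with TGATTGAT and that of *Meis2* with TGACAG. Of those 12051 stretches, 30.7% held TGACAG, 1.23% TGATTGAT, 1.61% TGATTTAT and 1.14% TGATTAAT. Of those 54578 heart stretches, 28.3% held TGACAG, 0.482% TGATTGAT, 0.566% TGATTTAT and 0.390% TGATTAAT.

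5 of the 6 genes carried more 5fC peaks in *Tdg* null than in WT hindbrain, and *Meis1*, *Meis2* and *Pbx2* were the most covered. The measure is the percent of the window under peaks of one library. In *Meis1*, *Meis2*, *Pbx2*, *Pbx3* and *Pbx4* each of the 4 *Tdg* null hindbrains lay above each of the 4 WT hindbrains. Over all annotated genes the same was true of 45.0%. Longer windows hold more peaks, and the part of window length in this share was not tested. With 4 against 4 libraries the two-sided exact permutation test cannot go below p = 0.0286. That value, 0.0634 after Benjamini-Hochberg adjustment over all genes, was reached by these 5 genes and by every gene without overlap. No gene had an adjusted p under 0.05 (0%), while 16800 had an unadjusted p under 0.05. With litters as pairs the smallest exact p is 0.125, which was the value of these 5 genes.

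**Figure D1:**
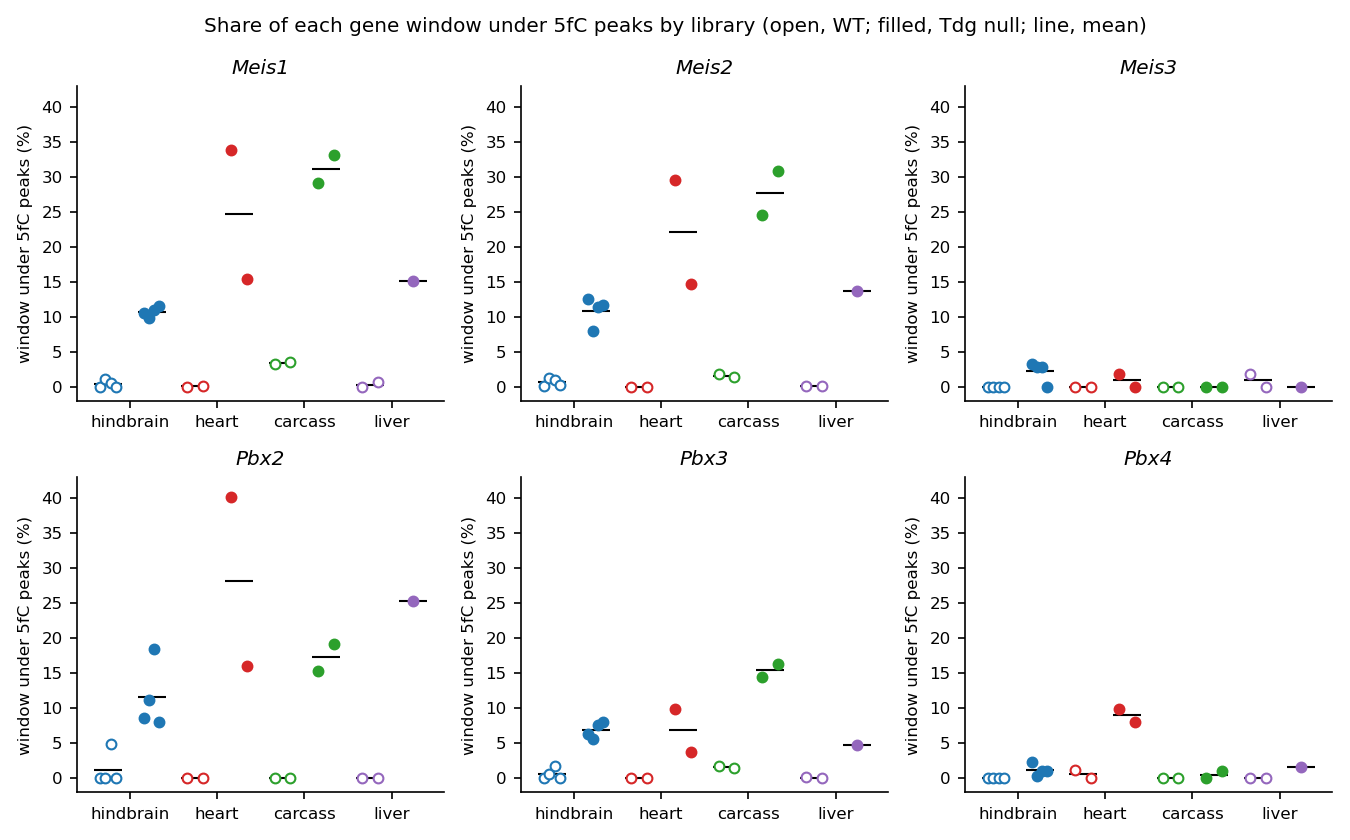
Percent of each gene window under 5fC peaks (y axis) in each library by tissue (x axis), with WT libraries as open points, *Tdg* null libraries as filled points and the group mean as a line. *Meis1*, *Meis2* and *Pbx2* reached 33.9, 30.8 and 40.2% in *Tdg* null libraries, while *Meis3* stayed at or below 3.31% in all of them.

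*Meis1*, which is needed for the formation of definitive blood cells and of the heart, spans 139 kb on the minus strand of chromosome 11 (18780433 to 18918961). Its window was under peaks by 0, 1.14, 0.606 and 0% in the WT hindbrains of litters A, O, Q and Z. It was under peaks by 10.6, 9.90, 11.0 and 11.6% in their *Tdg* null littermates, so all 4 null values were close to each other and far above WT. The means were 10.8 ± 0.715% (SD, n = 4) and 0.438 ± 0.551% (SD, n = 4), a difference of 10.3 percentage points (exact permutation p = 0.0286, adjusted p = 0.0634). In pair a and pair b, the *Tdg* null heart was at 33.9 and 15.4% and the WT heart at 0 and 0.202%. The *Tdg* null carcass was at 29.1 and 33.1% and the WT carcass at 3.23 and 3.57%. The WT carcasses were thus higher than all other WT libraries in this gene. The *Tdg* null liver of pair a was at 15.1%, and the WT livers were at 0 and 0.673%.

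*Meis2*, which acts in the development of the neural crest, spans 203 kb on the minus strand of chromosome 2 (115688800 to 115891575). WT hindbrains of litters A, O, Q and Z were covered by 0.188, 1.27, 1.03 and 0.235%, and the *Tdg* null hindbrains by 12.5, 7.94, 11.4 and 11.7%. Every WT hindbrain held at least 1 peak in this window, but none came near the null values. The means were 10.9 ± 2.02% and 0.681 ± 0.551% (SD, n = 4 each), with the same exact permutation p as *Meis1*. *Tdg* null hearts were at 29.6 and 14.7%, carcasses at 24.5 and 30.8% and the liver at 13.7%. WT hearts held no peak, WT carcasses were at 1.79 and 1.46% and both WT livers at 0.141%.

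*Meis3*, a paralogue that acts in hindbrain patterning, spans 11.1 kb on the plus strand of chromosome 7 (16760729 to 16771853). No library had a peak in its gene body. Its window was at 3.31, 2.84, 2.84 and 0% in *Tdg* null hindbrains A, O, Q and Z, whereas all 4 WT hindbrains were at 0%. The 3 null values above 0 came from 1 place, chr7:16758401-16759100, 1.63 to 2.33 kb upstream of the gene start and outside any annotated gene. The groups overlapped through litter Z, and the difference of 2.25 percentage points had an exact permutation p of 0.143 (adjusted p = 0.261). Without the *Tdg* null hindbrain of litter Z the groups no longer overlapped. The *Tdg* null heart of pair a and the WT liver of pair a each had 1 peak downstream of the gene, 1.89% of the window, and the other libraries of these tissues had none.

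*Pbx2*, a widely expressed member of the family, spans 6.13 kb on the plus strand of chromosome 17 (34728211 to 34734345). Its window is rich in CpGs, with 28.1 per kb against 8.34 per kb genome-wide, and it also takes in all or parts of *Notch4*, *Gpsm3*, *Ager*, *Rnf5* and *Gm20463*. *Tdg* null hindbrains were at 8.68, 11.2, 18.5 and 8.0% in the same order. WT hindbrains were at 0, 0, 4.96 and 0%, so that the WT value of litter Q came from a single peak. The means were 11.6 ± 4.82% and 1.24 ± 2.48% (SD, n = 4 each), and the exact permutation p was again 0.0286. *Tdg* null hearts were at 40.2 and 16.1%, carcasses at 15.4 and 19.2% and the liver at 25.3%, whereas no WT heart, carcass or liver had a peak. The WT peak of hindbrain Q (chr17:34730601-34731400) covered the 300 bases printed above and lay within the stretch shared by all 9 *Tdg* null libraries (chr17:34730501-34731400).

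*Pbx3*, needed for the control of breathing at birth, spans 202 kb on the minus strand of chromosome 2 (34026977 to 34228660). *Tdg* null hindbrains were at 6.28, 5.62, 7.61 and 8.03%, and WT hindbrains at 0, 0.661, 1.80 and 0%, in the same order of litters. The means were 6.89 ± 1.12% and 0.614 ± 0.847% (SD, n = 4 each, exact permutation p = 0.0286). *Tdg* null carcasses, at 14.5 and 16.4%, were above every other library in this gene. *Tdg* null hearts were at 9.97 and 3.73% and the liver at 4.77%. WT carcasses were at 1.80 and 1.51%, WT hearts at 0% and WT livers at 0.142 and 0%.

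*Pbx4*, known for its expression in the testis, spans 40.5 kb on the plus strand of chromosome 8 (72356523 to 72397062), and its window includes part of *Lpar2*. *Tdg* null hindbrains were at 2.37, 0.396, 0.989 and 0.989% in the same order, and no WT hindbrain had a peak. Although no value overlapped, the means of 1.19 ± 0.839% and 0% (n = 4 each) were the closest of the 5 genes. *Tdg* null hearts, at 9.89 and 8.11%, were higher than all other libraries. *Tdg* null carcasses were at 0 and 0.989% and the liver at 1.58%. The WT heart of pair a had 1 peak, 1.19% of the window, at the place in intron 1 printed above, and no other WT library had any.

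Over all tissues the same 5 genes were higher in *Tdg* null than in WT embryos in 6 of 6 litters, each litter being the mean of its tissues. The mean differences were 14.8 percentage points for *Meis1*, 14.1 for *Meis2*, 14.3 for *Pbx2*, 7.25 for *Pbx3* and 2.12 for *Pbx4*. The range over litters was 8.75 to 25.0 for *Meis1* and 0.396 to 4.55 for *Pbx4*. The exact sign-flip p of each was 0.0312, the smallest that 6 litters allow, and 0.0701 after adjustment over all genes. *Meis3* was higher in 3 of 6 litters (mean difference 1.5, exact p = 0.250, adjusted p = 0.383). All annotated genes were higher in 6 of 6 litters in 44.5% of cases. No gene had an adjusted p under 0.05 (0%), and 16617 had an unadjusted p under 0.05.

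The *Tdg* null libraries differ in how much of the genome they cover, so tissues were compared by relative density, the percent of the window under peaks divided by the percent of the genome under peaks. Among the *Tdg* null libraries *Meis1* and *Meis2* were by this measure lowest in hindbrain, *Pbx3* was lowest in heart, and *Pbx4* was highest in heart. An exact permutation test over 4 hindbrains, 2 hearts and 2 carcasses gave p = 0.00476 for *Meis1* and *Meis2*, the smallest it allows, 0.00952 for *Pbx3* and 0.0143 for *Pbx4*. For *Meis3* and *Pbx2* it gave 0.238 and 0.376. These 4 of 6 genes stand against 24.4% of all genes with an exact p under 0.05. After adjustment the values were 0.0878, 0.0878, 0.113 and 0.131, and no gene passed 0.05 (0%), with 9098 of 37273 under 0.05 unadjusted. limma on log2(relative density + 0.1) called 6032 of 29258 genes (20.6%) at an adjusted p under 0.05 and among the 6 only *Pbx4* (adjusted p = 0.0254), with *Pbx3* at 0.0515, *Meis1* at 0.152 and *Meis2* at 0.276. The limma share leaves out 8015 genes without a peak in the 8 libraries, which the 24.4% of the exact test includes. With peaks shorter than 600 bp left out, none of the 6 had an exact p under 0.05 (0.0524 for *Pbx3* to 0.357 for *Meis1*). Hindbrains came from other litters than hearts and carcasses, so tissue and litter cannot be told apart between them. The hearts and carcasses came from the same *Tdg* null embryos, which the exact permutation test treats as separate libraries.

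**Figure D2:**
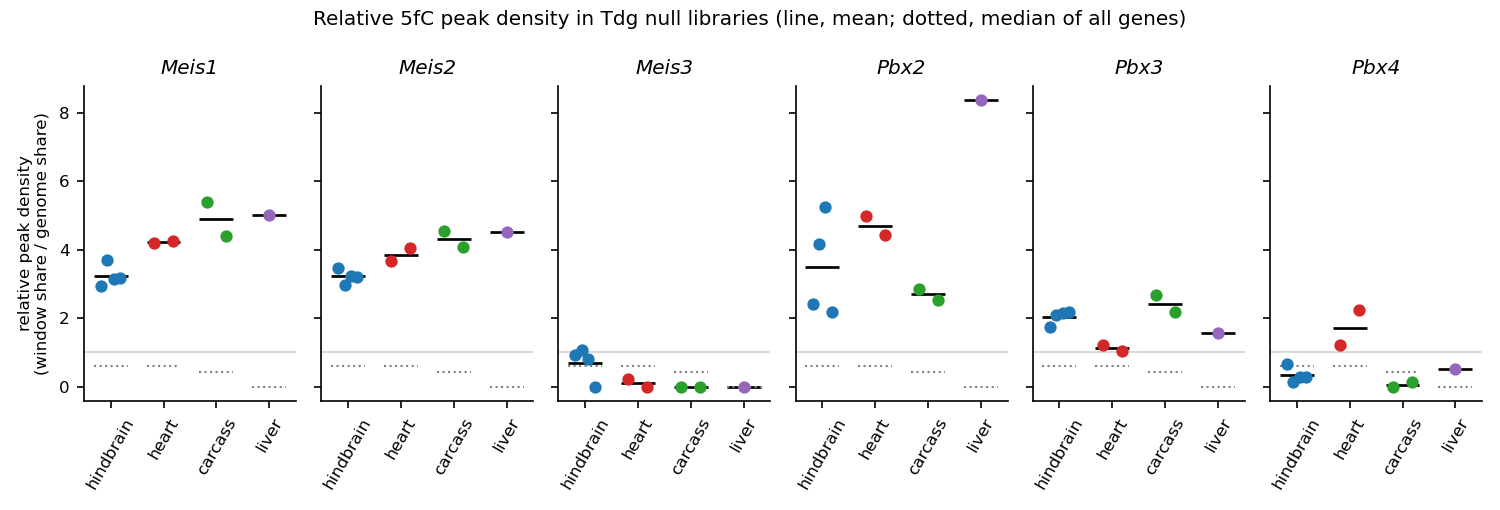
Relative density of 5fC peaks (y axis, percent of the window under peaks over percent of the genome under peaks) in each *Tdg* null library by tissue (x axis), with the mean as a black line, the median of all genes as a dotted line and the genome average of 1 as a grey line. *Meis1* and *Meis2* libraries lay between 2.94 and 5.40 in all tissues, and *Pbx4* libraries above 1 only in heart.

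In *Meis1* the relative density was 2.94, 3.70, 3.14 and 3.16 in the hindbrains of litters A, O, Q and Z. It was 4.19 and 4.24 in heart, 5.40 and 4.39 in carcass and 5.00 in liver. The order was liver, whose value lay inside the carcass range, then carcass (4.89 ± 0.716, SD, n = 2), heart (4.21 ± 0.0357, n = 2) and hindbrain (3.23 ± 0.326, n = 4). The hindbrain overlapped no other tissue, and carcass and heart did not overlap but lay 0.681 apart, within 1 SD of the carcass. *Meis2* had the same order, at 4.51 in liver, again inside the carcass range, 4.32 ± 0.333 in carcass (4.55 and 4.08), 3.85 ± 0.270 in heart (3.66 and 4.04) and 3.22 ± 0.209 in hindbrain (3.48, 2.97, 3.24 and 3.19). Carcass and heart of *Meis2* were 0.467 apart, although their libraries did not overlap. Counted per CpG in place of per base, *Meis1* was at 2.54 in hindbrain, 2.98 in heart and 3.32 in carcass, and its exact permutation p was 0.148. With peaks of at least 600 bp, hindbrain and heart were at 4.18 and 4.39 in *Meis1* and at 3.91 and 4.09 in *Meis2*, so the difference between them was smaller. By relative peak number, the peaks per 10 kb of window over the peaks per 10 kb of genome in that library, it was larger, with 1.78 and 3.87 in *Meis1* and 2.17 and 3.51 in *Meis2*. Thinning all *Tdg* null libraries to equal numbers of peaks left *Meis2* at 3.33, 3.73 and 4.44 with an exact permutation p of 0.0667. In WT libraries, with at most 7 peaks each in its window, the *Meis2* mean was highest in hindbrain. It was 5.26 ± 2.26 there (SD, n = 4), 1.86 ± 0.0605 in carcass, 0 in heart and 2.09 ± 2.33 in liver (n = 2 each). The *Meis1* means of these WT groups were, in the same order, 1.94 ± 3.09, 3.95 ± 0.712, 0.841 ± 1.19 and 8.91 ± 12.6.

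*Pbx3* was at 1.75, 2.10, 2.16 and 2.19 in hindbrain, 1.23 and 1.03 in heart, 2.68 and 2.17 in carcass and 1.57 in liver. The order of the means was carcass (2.43 ± 0.362), hindbrain (2.05 ± 0.204), liver and heart (1.13 ± 0.146). Carcass and hindbrain overlapped, whereas both hearts lay below every other library. *Pbx4* was at 1.22 and 2.23 in heart, 0.522 in liver, 0.660, 0.148, 0.281 and 0.270 in hindbrain and 0 and 0.131 in carcass. Heart (1.73 ± 0.711) was thus 5.08 times hindbrain (0.340 ± 0.222), and hindbrain lay above carcass (0.0655 ± 0.0926) without overlap, with hindbrain O at 0.148 and carcass pair b at 0.131 as the nearest libraries. Without the carcass of pair a the exact permutation p of *Pbx4* was 0.0571, and with 10 kb on each side of the gene it was also 0.0571, with heart at 1.69 and hindbrain at 0.561. With peaks of at least 600 bp heart was at 1.72 and hindbrain at 0.201. At this setting hindbrains O, Q and Z and both carcasses were at 0. In the gene body alone hindbrain Z held no peak, whereas the carcass of pair b did. Hindbrain and carcass of *Pbx4* thus overlapped under both settings.

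*Pbx2* was at 2.41, 4.17, 5.26 and 2.18 in hindbrain, 4.97 and 4.43 in heart, 2.86 and 2.54 in carcass and 8.36 in liver. Hindbrain overlapped both heart and carcass, while heart (4.70 ± 0.385) and carcass (2.70 ± 0.232) did not overlap each other. The single liver library was the highest of the 9. *Meis3* was at 0.922, 1.06, 0.807 and 0 in hindbrain, 0.234 and 0 in heart and 0 in carcass and liver. Without the hindbrain of litter Z its exact permutation p was 0.0286.

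Pairs of tissues were compared by whether their libraries overlapped, since 4 against 2 libraries cannot give an exact permutation p below 0.0667 and 2 against 2 none below 0.333. Heart lay above hindbrain in 3 of the 6 genes, *Meis1*, *Meis2* and *Pbx4*, against 21.6% of all genes. Carcass lay above hindbrain in *Meis1* and *Meis2*, against 8.16% of all genes. These 2 genes were also the ones in which both heart and carcass lay above hindbrain, which held for 3.57% of all genes. Hindbrain lay above heart in *Pbx3* (14.0% of all genes) and above carcass in *Pbx4* (16.2%). Heart lay above carcass in *Pbx2* and *Pbx4* (31.3%), and carcass above heart in *Meis1*, *Meis2* and *Pbx3* (16.3%). By relative peak number the *Meis2* mean turned to 3.51 in heart and 3.37 in carcass.

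Set among all genes, *Meis1*, *Meis2* and *Pbx2* were dense in 5fC peaks in every *Tdg* null tissue. The median relative density of all genes was 0.595 in hindbrain, 0.609 in heart, 0.422 in carcass and 0 in liver, and that of the 6 genes was 2.63, 2.79, 2.56 and 3.04. Of all genes, 30.5% had no peak in *Tdg* null hindbrain, 31.1% in heart, 35.1% in carcass and 53.0% in liver. The medians of all genes and the shares below include them. Only 7.85% of genes were higher than *Meis1* in hindbrain and 2.31% in carcass. The share higher than *Meis2* ran from 3.46% in carcass to 8.53% in heart, and that higher than *Pbx2* from 1.2% in liver to 10.4% in carcass. *Pbx3* was exceeded by 12.6% of genes in carcass and by 37.7% in heart. *Meis3* and *Pbx4* lay near or below the middle, with 47.2 and 57.7% of genes higher in hindbrain and 64.9 and 63.9% in carcass, and *Pbx4* was exceeded by 27.1% in heart.

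In *Meis1*, *Meis2* and *Pbx3* the peaks lay almost wholly inside the gene, and the flanks of 5 kb on each side were at 0 to 3.0% on average in each *Tdg* null tissue. In *Meis3* they lay outside the gene body. The flanks of *Pbx2* were at 16.9 ± 4.24% in carcass, and those of *Pbx4* at 15.0 ± 5.66% in heart (SD, n = 2 each). In the promoters, from 1000 bp upstream to 500 bp downstream of the start, no WT library had a peak in any of the 6 genes. Of the 9 *Tdg* null libraries only the heart of pair a and the liver of pair a had a promoter peak, both in *Pbx2*, where 85.9% of the promoter was covered. Over all genes, 9.75 to 25.3% of promoters overlapped a peak in a *Tdg* null library, and 62.1% overlapped none in any of the 9. CpG islands, called as stretches of at least 200 bp with at least 50% GC and an observed over expected CpG ratio above 0.6, covered 83.5% of the *Meis1* promoter, 87.3% of that of *Meis2* and 69.0% of that of *Pbx3*. They covered 50.3% of the *Pbx4* promoter, 31.8% of that of *Meis3* and 0% of that of *Pbx2*. Over the whole windows islands were not free of peaks. Those of *Meis1* were at 17.8 ± 2.79% in *Tdg* null hindbrain and 28.2 ± 6.52% in heart, and those of *Pbx2* at 23.4 ± 2.77% in hindbrain. Those of *Pbx3* and *Meis3* held no peak in *Tdg* null hindbrain or carcass. Counted over islands of at least 500 bp alone, those of *Meis1* were at 14.1 ± 0.916% in *Tdg* null hindbrain and 14.8% in both hearts. Those of *Pbx2* were then at 0% in *Tdg* null hindbrain and 2.52 ± 3.56% in heart. At this length the islands of *Meis2*, *Pbx3* and *Pbx4* held no peak in any library used. The first peak of any *Tdg* null library downstream of the start was 4.76 kb away in *Meis1*, 5.28 kb in *Meis2*, 2.66 kb in *Pbx3* and 2.98 kb in *Pbx4*.

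**Figure D3:**
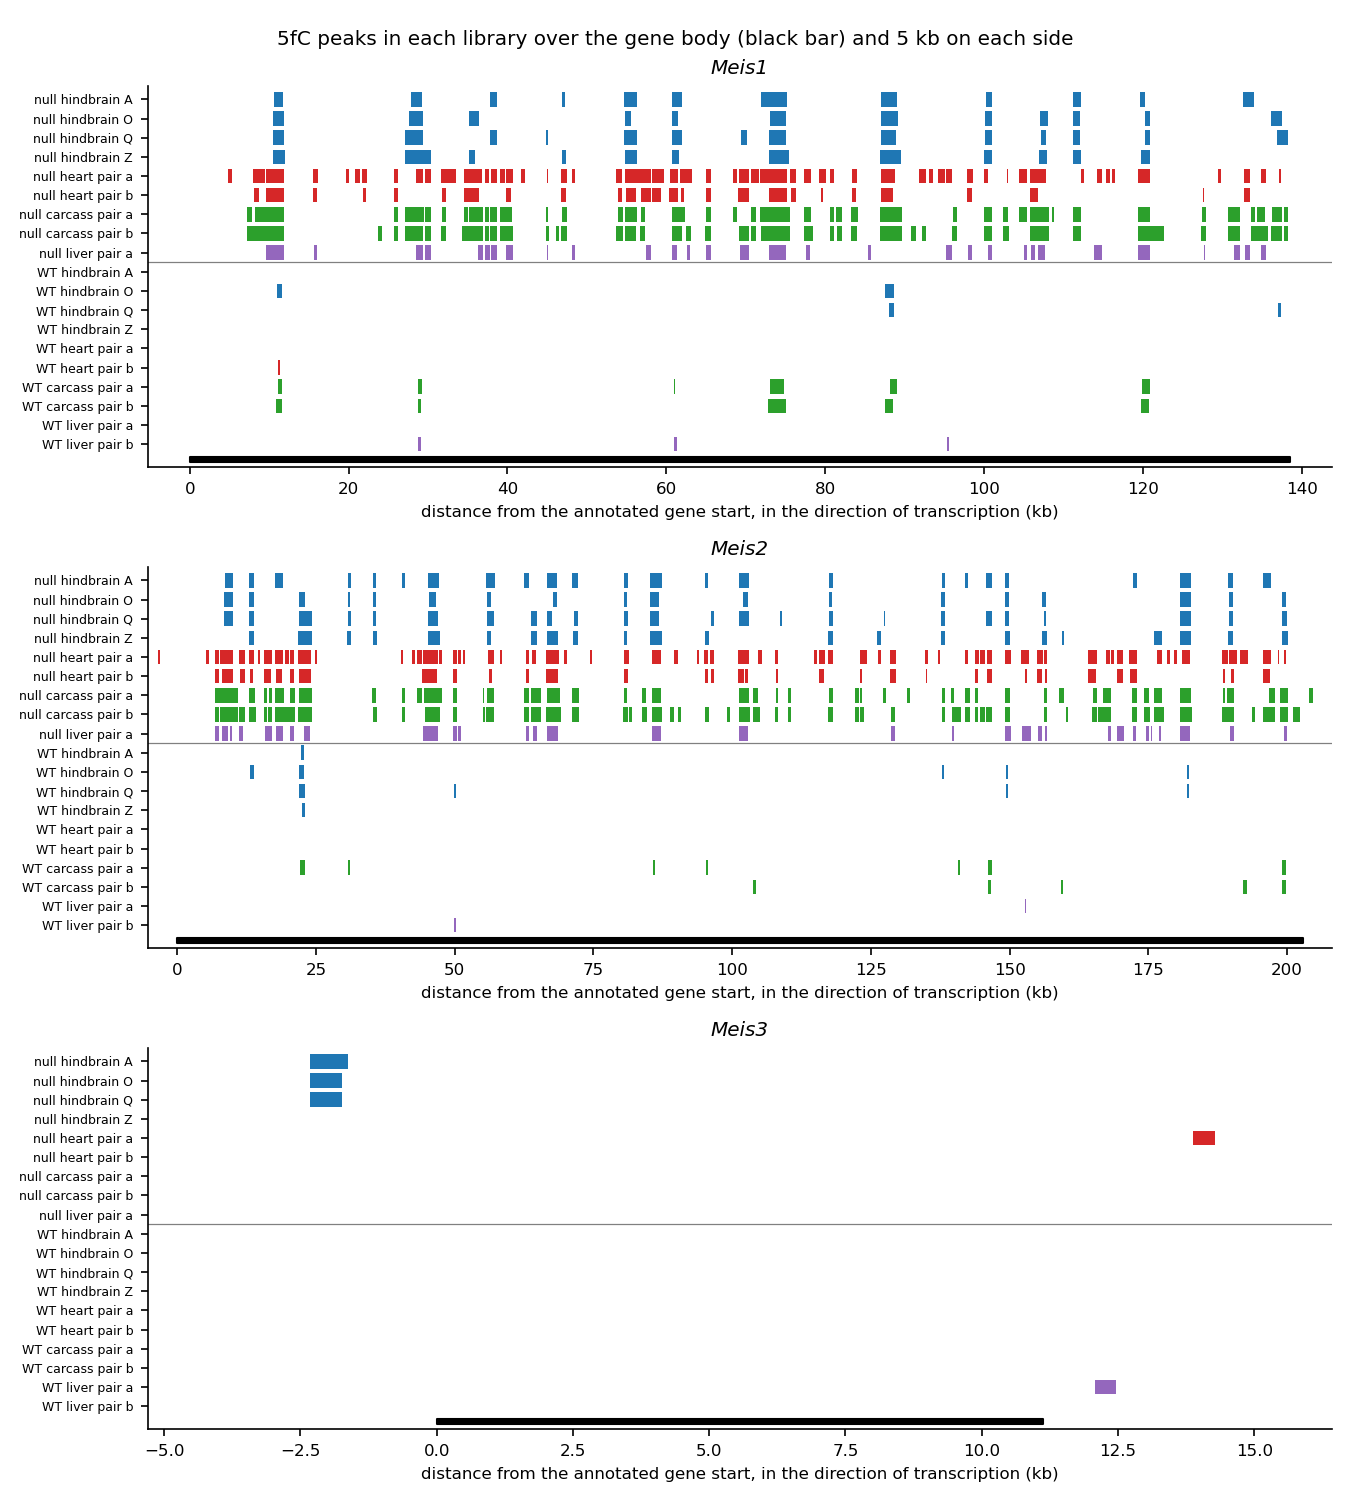
Peaks of each of the 19 libraries (rows, *Tdg* null above the grey line and WT below, coloured by tissue) along *Meis1*, *Meis2* and *Meis3*, against the distance from the gene start in kb in the direction of transcription, with the gene body as a black bar. Peaks of *Meis1* and *Meis2* are spread along the body with gaps between them and leave out the start, and *Meis3* has no peak in its body.

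Merged over the 9 *Tdg* null libraries, peaks formed 56 blocks in *Meis1*, 83 in *Meis2*, 57 in *Pbx3*, 9 in *Pbx4*, 5 in *Pbx2* and 2 in *Meis3*. All 9 libraries had a peak in 4 blocks of *Meis1*, 3 of *Meis2*, 3 of *Pbx3* and 1 of *Pbx2*. A single library accounted for 15, 27 and 18 blocks in *Meis1*, *Meis2* and *Pbx3*.

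Exons of *Meis1* were covered by 49.8 ± 6.62% in the 2 *Tdg* null carcasses and its introns by 32.4 ± 2.86%. In hindbrain its exons were at 8.47 ± 6.88% and its introns at 11.7 ± 0.984% (SD, n = 4). Its exons were also below its introns in heart, at 23.4 ± 10.6 and 26.6 ± 14.2%, and in liver, at 4.72 and 16.9%, so the carcass alone had more in exons. *Meis2* exons were at 41.8 ± 6.84% in carcass against 28.1 ± 4.76% for introns, and at 18.4 ± 5.85% against 11.0 ± 2.10% in hindbrain. *Pbx3* exons were at 16.5 ± 1.97% in hindbrain against 6.86 ± 1.31% for introns, but at 1.41% against 5.13% in liver. *Pbx4* exons held no peak in any *Tdg* null hindbrain, heart or carcass, and its introns were at 8.11 ± 0.188% in heart.

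**Figure D4:**
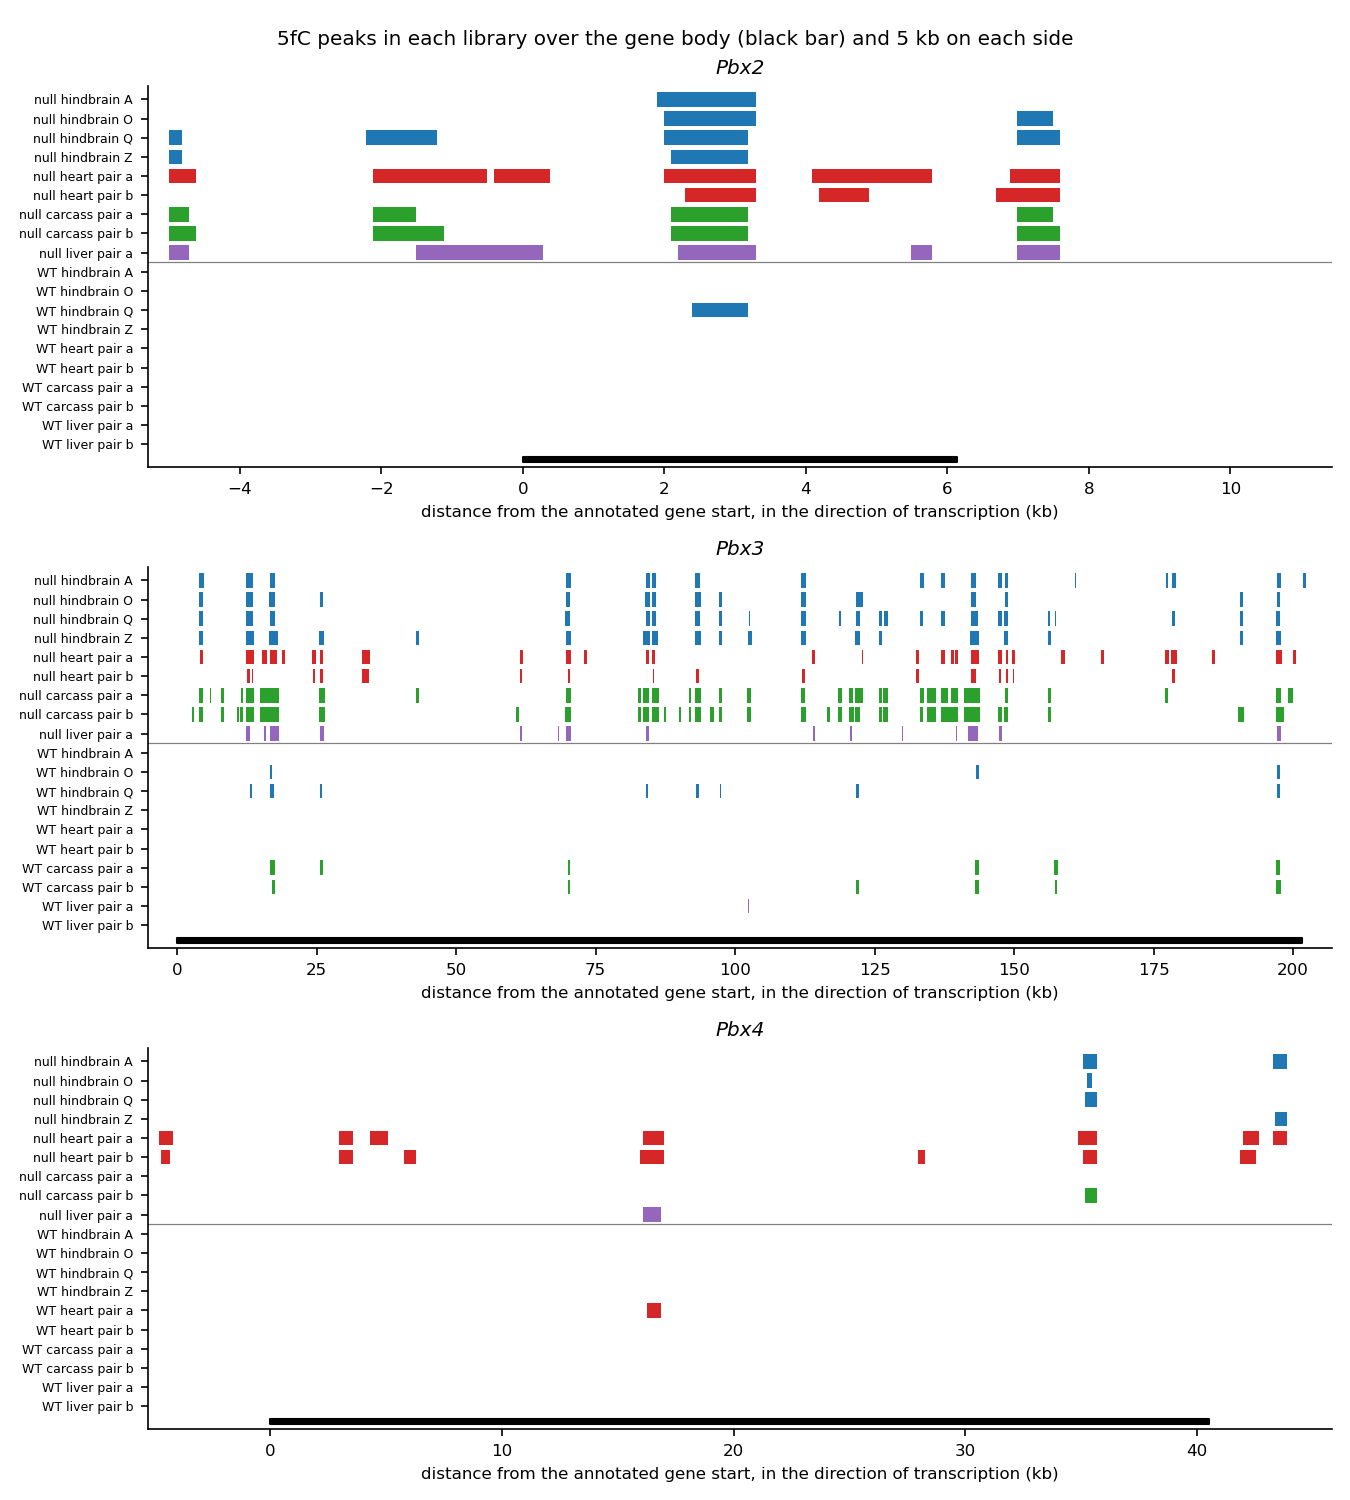
Peaks of each of the 19 libraries (rows, *Tdg* null above the grey line and WT below, coloured by tissue) along *Pbx2*, *Pbx3* and *Pbx4*, against the distance from the gene start in kb in the direction of transcription, with the gene body as a black bar. All 9 *Tdg* null libraries share a block of *Pbx2* between 1.89 and 3.29 kb, and the *Pbx4* blocks that start at 16.0 and 34.9 kb hold 3 and 6 of them.

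In *Pbx2* the block shared by all 9 libraries ran from 1.89 to 3.29 kb downstream of the start (chr17:34730101-34731500). A second block, from 4.09 to 5.79 kb at the end of the gene, was covered in both *Tdg* null hearts and in the liver and in no hindbrain or carcass. Another, from 6.69 to 7.59 kb, lay in *Ager* and was covered in 2 hindbrains, both hearts, both carcasses and the liver. A block from 2.21 kb upstream to 0.389 kb downstream, overlapping *Gpsm3*, was covered at least in part in 5 libraries, of which only the 2 named above reached the promoter. Coverage counted for *Pbx2* in its window is therefore partly that of its neighbours. In the gene body alone the mean relative densities of *Pbx2* were 6.18 in hindbrain, 7.22 in heart and 2.85 in carcass.

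In *Pbx4* the block at 34.9 to 35.7 kb (chr8:72391401-72392200) was covered in 3 hindbrains, both hearts and 1 carcass. The block at 16.0 to 17.0 kb, which contains the intron 1 sequence, was covered in both hearts and the liver. Blocks at 2.98 to 3.58 kb, 41.9 to 42.7 kb and 4.22 to 4.82 kb upstream, the last in *Lpar2*, were covered in both hearts and in no other library. Stretches under peaks of both hearts and of no hindbrain or carcass made up 41.7% of all bases under a *Tdg* null peak in this window, against 10.5% genome-wide.

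Such heart stretches made up 6.35% in *Meis1*, 5.76% in *Meis2*, 5.97% in *Pbx3* and 11.4% in *Pbx2*. Carcass stretches, under both carcasses and no hindbrain or heart, made up 16.3% in *Pbx3*, 9.49% in *Meis2* and 7.90% in *Meis1*, against 7.17% genome-wide, while *Meis3*, *Pbx2* and *Pbx4* had none. Heart and carcass stretches may also lie at least in part under a liver peak, as in the longest heart stretches of *Pbx4* and *Meis2* and the longest carcass stretch of *Meis1*. Hindbrain stretches, under all 4 hindbrains and no other *Tdg* null library, numbered 4 and made up at most 0.640% of a window's covered bases, against 0.456% genome-wide. The longest of them, 400 bp in *Meis2* intron 8 at chr2:115860401-115860800, also carried a peak in the WT carcass of pair a. Stretches under peaks of all 9 libraries made up 12.9% in *Pbx2*, 5.36% in *Meis1*, 3.29% in *Pbx3* and 1.60% in *Meis2*, against 2.38% genome-wide. A stretch must be shared by 4 hindbrains but by only 2 hearts or 2 carcasses, so the classes are compared with the genome and not with each other.

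**Figure D5:**
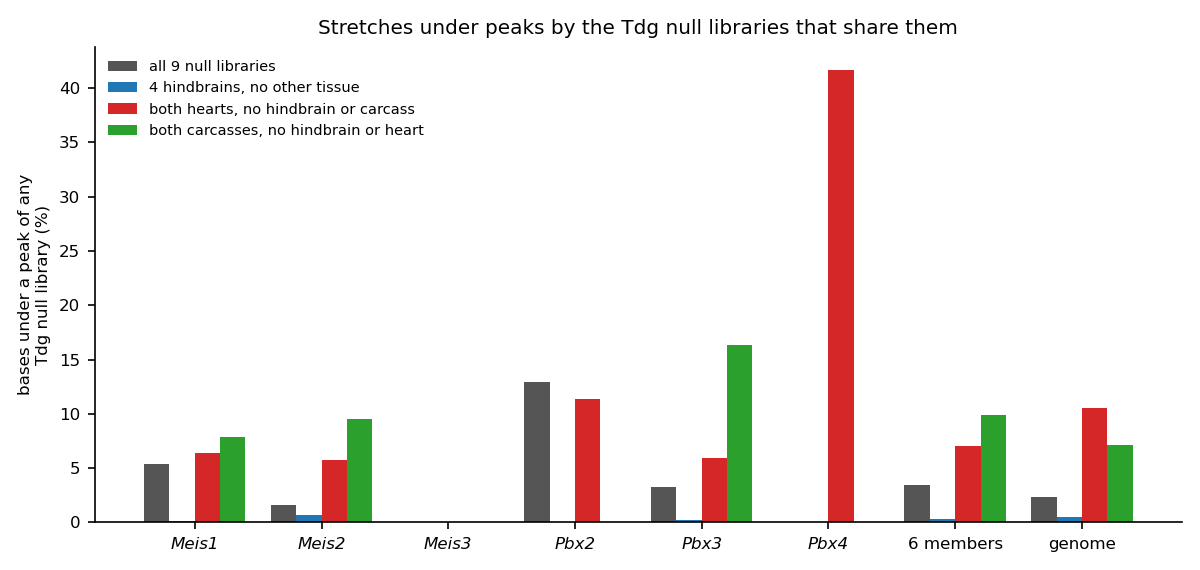
Percent of the bases under a peak of any *Tdg* null library (y axis) that belong to stretches shared by all 9 libraries, by the 4 hindbrains and no other tissue, by both hearts and no hindbrain or carcass, or by both carcasses and no hindbrain or heart, for each gene, the 6 genes together and the genome (x axis). *Pbx4* stands at 41.7% for heart stretches and *Pbx3* at 16.3% for carcass stretches, against 10.5 and 7.17% genome-wide.

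In WT embryos the peaks of these genes recurred at few places. *Meis2* had a peak in 8 of 10 WT libraries, *Meis1* in 6, *Pbx3* in 5 and *Meis3*, *Pbx2* and *Pbx4* in 1 each. As many WT libraries as *Meis2*, *Meis1* and *Pbx3* were found for 1.26, 5.03 and 8.11% of all genes, though long windows such as theirs hold more peaks. The stretch of *Meis2* intron 8 printed above, 22.6 kb from the start, was covered in all 4 WT hindbrains and in the WT carcass of pair a, and in 7 of 9 *Tdg* null libraries. The stretch of *Meis1* intron 8, 88.4 kb from the start, was covered in the WT hindbrains of litters O and Q and in both WT carcasses, and in 8 of 9 *Tdg* null libraries. *Meis1* had a second such place about 11.2 kb from the start, with a peak in WT hindbrain O, WT heart pair b and both WT carcasses and in all 9 *Tdg* null libraries. In *Pbx3* a place shared by 4 WT libraries lay at chr2:34031001-34031600 over an exon near the end of the gene, in WT hindbrains O and Q and both WT carcasses. A second place of *Pbx3*, 16.9 to 17.2 kb from the start, had a peak in the same 4 WT libraries.

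The 9 WT libraries with a usable null partner, which leaves out the WT liver of pair b, held 67 peaks in the 6 windows. Of these, 53 (79.1%) overlapped a peak in the matching tissue of the *Tdg* null littermate. All 16 in *Meis1* did, 16 of 24 in *Meis2* and 19 of 24 in *Pbx3*. The genome-wide share was 60.5% over the same 9 libraries. It was 74.5 to 82.4% in the hindbrains 55.6 and 72.4% in the carcasses, 34.7 and 37.7% in the hearts and 30.1% in the liver, and most of the 67 peaks came from hindbrain and carcass. The WT peak of *Meis3* in liver was covered in no *Tdg* null library.

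Other genes linked to these cofactors were read in the same way from 3 lists. Of 11 TALE relatives, 9 had all *Tdg* null hindbrains above all WT hindbrains, beside 45.0% of all genes, and 4 had an exact permutation p under 0.05 between tissues, beside 24.4%. *Pknox1*, whose product pairs with Pbx proteins, was at 2.23 ± 0.263 in hindbrain, 3.18 ± 0.272 in heart and 1.09 ± 0.00968 in carcass. *Pknox2* was at 2.62 ± 0.322, 1.60 ± 0.412 and 3.50 ± 0.150, which is the order seen for *Pbx3*. *Irx1* was at 0.542 ± 0.417, 1.63 ± 0.253 and 0.740 ± 0.175, and *Irx6* at 4.59 ± 0.902, 0.667 ± 0.944 and 3.63 ± 0.399.

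*Hox* genes of the hindbrain encode partners of Meis and Pbx proteins. None of the 10 that could be matched had a peak in a WT or *Tdg* null hindbrain, whereas 30.5% of all genes had none in the *Tdg* null hindbrains. Of the 10, 2 had an exact permutation p under 0.05 between tissues, beside 24.4% of all genes. *Hoxb2* was at 2.36 ± 0.870 in carcass and 0.220 ± 0.311 in heart, and *Hoxb3* at 2.34 ± 0.166 and 0.185 ± 0.262, with exact permutation p = 0.0238 for both. *Hoxb4* had no peak in any library. The median of the 10 was 0 in hindbrain and heart and 0.495 in carcass.

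Of 11 regulators of hindbrain segments and known targets of the complexes, 8 had all *Tdg* null hindbrains above all WT hindbrains, beside 45.0% of all genes, and 3 had an exact permutation p under 0.05 between tissues, beside 24.4%. *Epha4*, an ephrin receptor of alternate segments, was at 3.02 ± 0.340 in hindbrain, 2.73 ± 0.250 in heart and 4.20 ± 0.509 in carcass. *Epha7* was at 1.25 ± 0.228, 1.97 ± 0.282 and 1.57 ± 0.0420, and *Gbx2* at 1.53 ± 0.298, 0.242 ± 0.342 and 1.91 ± 0.381. The list medians were 1.25, 0.327 and 1.15 in hindbrain, heart and carcass, and those of the TALE relatives 2.23, 1.63 and 1.65, beside 0.595, 0.609 and 0.422 for all genes. No list gene had an adjusted p under 0.05 in the exact tests.

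Across the 9 *Tdg* null libraries the relative densities of *Meis1* and *Meis2* followed each other with Pearson's r = 0.88, and those of *Pbx3* and *Pbx4* ran against each other with r = -0.90. These values describe 9 libraries of 4 tissues that share peak numbers and litters, and no test was made of them. Among 10780 to 10804 genes with windows of at least 20 kb and at least 2% covered, the genes most like *Meis1* were *Gm13634*, *Cntfr* and *Zfp608* (r = 0.954 to 0.955). Those most like *Meis2* were *Gcom1*, *Zfhx3* and *Zswim7* (0.958 to 0.960), and those most like *Meis3* were *Ccdc38*, *Plxnb2* and *Myof* (0.955 to 0.968). *Pbx2* was most like *Gramd1a*, *Gm20418* and *Kcnn3* (0.937 to 0.951), and *Pbx3* most like *Tox3*, *Npas3* and *Dnahc9* (0.964 to 0.968). *Pbx4* was most like *Slc2a1*, *Unc119b* and *Jph2* (0.990 to 0.993), whose means in heart were 9.34, 3.72 and 11.4 against 2.62, 1.62 and 2.54 in hindbrain. These genes were picked for their likeness to *Pbx4*, so their higher heart values follow from that choice.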

How the data were processed

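Sonicated DNA of each tissue was pulled down with a probe for 5fC and sequenced. Per the study's methods, the authors trimmed the reads with Trim Galore, aligned them to NCBIM37 (mm9) with Bowtie2 and called peaks in each pull-down with MACS in SeqMonk, assuming fragments of 200 bp and a p-value threshold of 1e-05. Input control and removal of duplicates are not given in the sources used here. The deposited values are start and end positions of peaks in bases on a grid of 100 bp, read as 1-based and inclusive. Sequencing depth is unknown, so no interval for counting error is given, and values depend on the caller's threshold and on depth.

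Peaks on 21 chromosomes were set against windows from GENCODE's annotation of NCBIM37. Groups follow the labels. The 4 hindbrain pairs and the 2 other pairs share a litter per the labels. In hindbrain, deviations of littermates from their group means over 29953 genes had correlations of -0.05, 0.13, -0.15 and 0.11. Tests were two-sided exact permutation tests (4 against 4, 6 litters by sign flips, 3 tissues), fitted on all 37273 genes with Benjamini-Hochberg adjustment, with limma 3.58.1 in R 4.3.3 as an alternative. Python 3.11.15, numpy 2.4.6 and pandas 2.3.3 were used, and code was tested on simulated data.

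All 6 genes are named. From the lists, genes with an exact p under 0.05 between tissues or with no peak are named, up to 4 a list. A result from the lists and a stretch are not reported here. *Hoxa3* matched more than 1 gene and was dropped. Stretches given by position were drawn from the longest of each kind in a window, not all of which are given. The second *Meis1* and *Pbx3* places in WT libraries were instead chosen after their values were seen. The genes named as most alike are the 3 with the highest correlation, on another chromosome or over 1 Mb away. The members and lists were chosen with earlier results of these data known. Alternatives were stricter peaks, other windows and measures, a log2 scale, other families of genes, thinning, pairing and each replicate left out.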

Additional observations from a re-analysis of the deposited data

Results flagged for a closer look

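2 of 16 sets of 4 hindbrain values had a library that stood apart from the other 3. *Tdg* null values of each gene entered both as percent of the window and as relative density, so the sets are not independent. Chance flags about 1 in 20 sets of continuous values, a rate that does not hold for sets with values tied at 0, such as the *Pbx2* set below. The *Tdg* null hindbrain of litter Z was at 0% of the *Meis3* window, against 2.84 to 3.31% in the other 3, which all had the same peak upstream of the gene. By relative density, at 0 against 0.807 to 1.06, the same library was not flagged. The WT hindbrain of litter Q was at 4.96% of the *Pbx2* window, against 0% in the other 3. That library also had the most peaks of the 4 WT hindbrains, 21606 in all, and the part of this number in the *Pbx2* value was not tested.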

How the results depend on the processing

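No difference between genotypes, or between heart and hindbrain, turned its direction in any of the 6 genes under the alternatives run. By peaks per 10 kb relative to the genome, *Meis2* turned between heart and carcass (3.51 and 3.37) and *Pbx2* between carcass and hindbrain (3.35 and 2.90). The count of 5 genes without overlap in hindbrain was 4 with peaks of at least 600 bp (*Pbx4* exact p = 1.0), with the gene body alone (*Pbx4* exact p = 0.143) and with peaks per 10 kb (*Pbx2* exact p = 0.0571). The count over litters was 4 to 5. Leaving out single libraries gave 5 to 6 genes in hindbrain, 5 over litters and 3 to 5 for the tissue test, with *Meis3* gained without the *Tdg* null hindbrain of litter Z and *Pbx4* lost without the carcass of pair a. With 1 library of a tissue left, the exact test permutes that library with the rest. The tissue test called 4 genes, 0 with peaks of at least 600 bp and 2 by limma, of which 1 had an adjusted p under 0.05. With the litter as a random replicate block limma also gave 2 and 1 (*Pbx4* adjusted p = 0.0303). With the replicate block in hindbrain, the exact p of the 5 genes was 0.125 (adjusted p = 0.272). Adjusted over genes with a mean of at least 1% covered, 4 genes had an adjusted p under 0.05 in hindbrain (0.0356) and 5 over litters (0.0432). These genes pass through their *Tdg* null libraries, so this filter selects for the difference tested and its adjusted values support nothing. An unpaired test of 6 against 6 litter means, chosen after seeing the data, gave 5 such genes. The cause was not tested. Depth cannot be read from peak positions, and a window without a peak does not show that 5fC was absent.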
